A study of Mus musculus with 2 samples.

Results

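Glycolysis, glucose transport and lactate export were followed step by step in chondrospheres, through 34 genes chosen by symbol from the pathway: the glucose transporters, the enzymes from hexokinase to lactate dehydrogenase, the lactate transporters, and the enzymes that regulate the pathway or pass its pyruvate to the mitochondrion. All 34 were among the 23628 genes listed in both libraries. Sox9-GFPHi chondrospheres were sequenced as 2 RNA libraries, replicates 1 and 2, and both belong to 1 group, so no condition was compared with another. The cells were isolated at postnatal day 7 from the femoral heads of mice that carry a Sox9-GFP reporter, and were sorted for high GFP, which marks *Sox9* expression at the time of the sort only. The sort also kept only live cells that lacked surface markers of endothelial cells, erythrocytes and leukocytes. Single cells grew into colonies over 3 to 4 weeks in 1% methylcellulose in a chamber at 5% oxygen, and all values below come from that one oxygen level. Per the study's methods, femoral heads of every pup were taken as a biological replicate of their own, while the labels do not say which pup a library came from.

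Glycolysis splits a glucose molecule into a pair of pyruvate molecules and gains ATP without using oxygen. Lactate dehydrogenase reduces pyruvate to lactate, which restores the NAD+ that the pathway consumes, and monocarboxylate transporters carry the lactate out of the cell together with a proton. Cartilage has no blood vessels, and chondrocytes are known for making much of their ATP this way. Under low oxygen, the hypoxia-inducible factors (HIFs) are known to raise transcription of many of these genes.

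Values are counts-per-million (CPM) of the reads assigned to genes. The steps between the lowest values imply that 1 CPM corresponds to about 43.3 reads in replicate 1 and 42.2 in replicate 2, and 3 reads correspond to 0.0693 and 0.0712 CPM, a limit that covers counting error only. The 10 highest genes took 43.4% and 34.7% of all reads, and the log2 ratio of replicate 2 to replicate 1 had a median over the 12631 genes averaging at least 1 CPM of 0.30. The 8 chondrocyte markers, which include *Col2a1* and *Acan*, made up 18.4% and 12.8% of the reads, and all 8 exceeded 50 CPM in both libraries. The largest gap among them was in the matrix protein gene *Matn3*, at 741 and 53.1 CPM. Ratios between the libraries below carry this difference in composition, and in bulk samples fewer cells of a type and less RNA per cell cannot be told apart.

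The sequences that bear on the results are the promoters of the genes that import glucose and form and export lactate, among them the 3 genes more than 2-fold apart between the libraries. They are RefSeq starts on GRCm38.p6, printed from 250 bases before the start to the base before it, except that *Slc2a1* ends 4 bases earlier. Capitals mark ACGTG or GCGTG on either strand, the core that HIF dimers are known to bind. CACGTG, which is also the E-box bound by other factors, holds ACGTG on both strands and counts as 2 matches. *Slc2a1* lies at chr4:119108495-119108740 on the plus strand, *Ldha* at chr7:46845554-46845803 on the plus strand and *Ldhb* at chr6:142507958-142508207 on the minus strand. *Slc16a1* lies at chr3:104638414-104638663 and *Slc16a3* at chr11:120948817-120949066, both on the plus strand.
Slc2a1: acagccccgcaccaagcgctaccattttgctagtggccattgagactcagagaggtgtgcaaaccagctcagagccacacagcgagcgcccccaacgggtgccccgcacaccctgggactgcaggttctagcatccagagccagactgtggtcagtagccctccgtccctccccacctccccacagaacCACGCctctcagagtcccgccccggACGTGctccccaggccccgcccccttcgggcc
Ldha: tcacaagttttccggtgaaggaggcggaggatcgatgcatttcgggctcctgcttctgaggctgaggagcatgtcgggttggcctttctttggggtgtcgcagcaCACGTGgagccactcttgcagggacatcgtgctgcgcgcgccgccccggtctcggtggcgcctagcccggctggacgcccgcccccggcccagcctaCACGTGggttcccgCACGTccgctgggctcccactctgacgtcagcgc
Ldhb: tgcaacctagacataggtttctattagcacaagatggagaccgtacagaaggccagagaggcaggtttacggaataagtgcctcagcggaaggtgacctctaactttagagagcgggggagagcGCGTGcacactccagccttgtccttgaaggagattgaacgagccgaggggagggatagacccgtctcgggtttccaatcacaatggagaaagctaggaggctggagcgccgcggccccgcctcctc
Slc16a1: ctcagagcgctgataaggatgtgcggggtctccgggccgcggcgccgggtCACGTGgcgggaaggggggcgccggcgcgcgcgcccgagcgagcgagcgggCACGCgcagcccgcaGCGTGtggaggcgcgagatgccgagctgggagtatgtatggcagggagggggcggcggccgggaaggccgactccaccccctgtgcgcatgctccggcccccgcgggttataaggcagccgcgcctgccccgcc
Slc16a3: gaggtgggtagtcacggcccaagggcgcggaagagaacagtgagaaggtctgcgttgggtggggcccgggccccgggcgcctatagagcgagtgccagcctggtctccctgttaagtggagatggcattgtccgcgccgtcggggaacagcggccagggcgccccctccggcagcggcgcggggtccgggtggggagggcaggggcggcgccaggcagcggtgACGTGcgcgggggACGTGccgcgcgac

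The *Ldha* promoter shown held 5 matches and that of *Slc16a1* held 4, each with CACGTG, whereas *Ldhb* held 1 match. Where a gene had more than 1 RefSeq promoter, the one with the most matches was printed. A further *Ldha* promoter, at chr7:46846832-46847081, held 1 match and no CACGTG, so the contrast with *Ldhb* depends on the promoter taken. *Slc2a1* and *Slc16a3* held 2 matches each, and both of those in *Slc16a3* stood within 30 bases of the start on the plus strand. RefSeq promoters were found for 32 of the 34 genes, all but *Slc2a3* and *Slc2a4*. A match occurred in at least 1 promoter of 28 of these 32 genes (87.5%), of 62.8% of genes averaging at least 1 CPM and of 41.5% of all genes. Counted per promoter of this length, the shares were 74.5%, 56.5% and 38.6%, at a median GC content of 59.2%, 60% and 52.4%. A match describes the letters in this window and is not a binding site.

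The pathway as a whole was well covered. An average of 1 CPM was reached by 31 of the 34 genes, against 53.5% of all listed genes. A mean of 10 CPM was reached by 26 of the 34, against 7903 of the 23628 listed genes. A mean of at least 100 CPM was reached by 12 of the 34 genes, against 4.65% of all listed genes. These counts and the next values are not divided by length. The median of the 34 gene means was 44.1 CPM, beside 1.63 CPM over all listed genes and 16.2 CPM over genes averaging at least 1 CPM. Together the 34 genes held 0.454% and 0.497% of all CPM in replicates 1 and 2. The genes under 1 CPM were *Slc2a3*, *Slc2a4* and *Pfkfb1*.

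**Figure D1:**
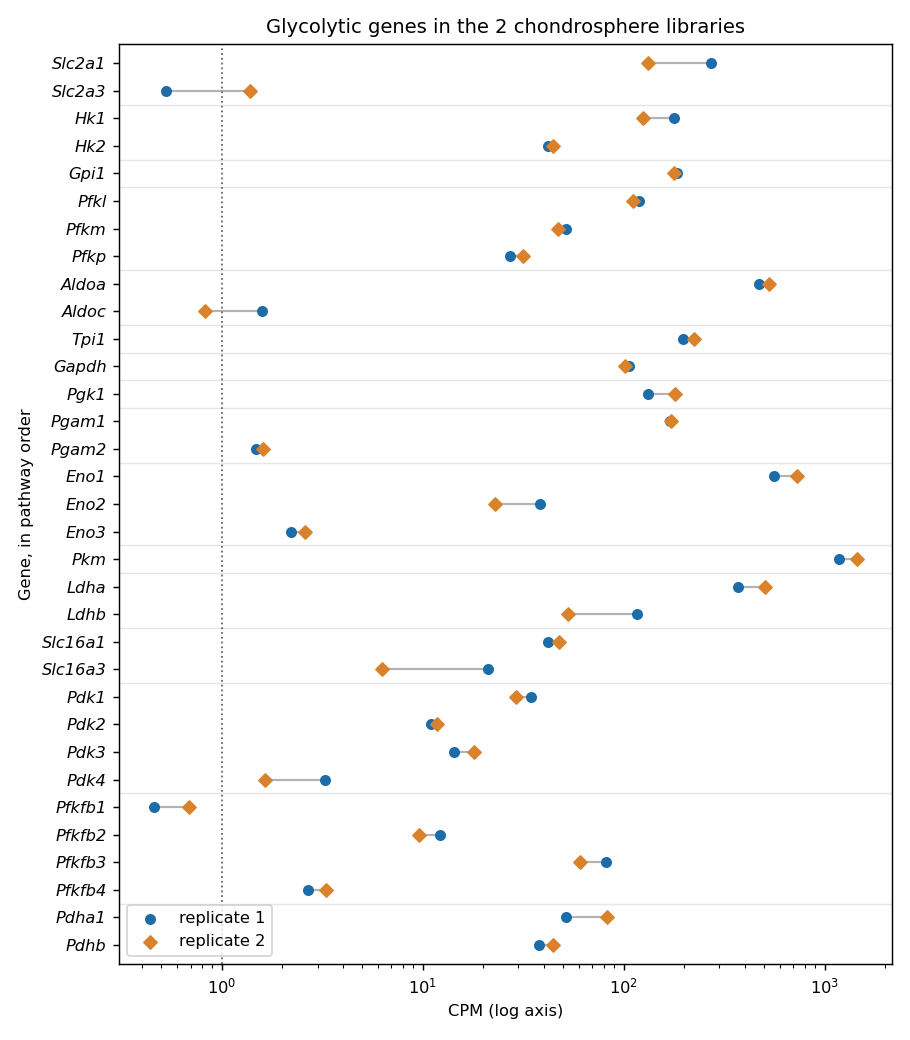
CPM of 33 genes in replicate 1 (circles) and replicate 2 (diamonds) on a log axis, in pathway order, with a dotted line at 1 CPM and thin lines between steps. *Slc2a4*, at 0 CPM in both libraries, is not drawn. *Pkm* stands farthest to the right and *Slc16a3* shows the widest gap between the libraries among genes above 1 CPM.

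Of the 3 glucose transporters among the 34 genes, *Slc2a1* alone averaged at least 1 CPM. *Slc2a1*, which encodes GLUT1, the transporter of basal glucose uptake, had 272 and 133 CPM in replicates 1 and 2, a mean of 202 ± 98.3 CPM (SD, n = 2). Its level was high in both libraries and 2.05-fold lower in replicate 2. *Slc2a3*, for the high-affinity GLUT3 of neurons, had 0.531 and 1.38 CPM. *Slc2a4*, for the insulin-responsive GLUT4 of muscle and fat, had 0 CPM in both libraries, which allows up to 0.0693 and 0.0712 CPM. Per kilobase of transcript, *Slc2a1* exceeded *Slc2a3* 621-fold in replicate 1 and 117-fold in replicate 2. Of 9 other hexose transporters, 4 reached a mean of 1 CPM, none passed 2-fold between the libraries, and the highest per kilobase were *Slc2a10* at 11.2 ± 0.340 and *Slc2a13*, an inositol transporter, at 4.003 ± 1.23 CPM per kilobase (SD, n = 2).

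The hexokinase step, which traps glucose as its 6-phosphate, was led by *Hk1*. *Hk1*, the broadly expressed form, had 178 and 125 CPM in replicates 1 and 2. *Hk2*, the form known to be inducible by insulin and hypoxia, had 42.2 and 44.7 CPM. Per kilobase, *Hk1* exceeded *Hk2* 5.44-fold and 3.62-fold, so that *Hk2* supplied 15.5% and 21.6% of the hexokinase level. *Hk3* and *Hkdc1* were at 0 CPM in both libraries. *Adpgk*, whose enzyme phosphorylates glucose with ADP, had 91.5 and 111 CPM. *Gpi1*, which turns glucose 6-phosphate into fructose 6-phosphate, differed little between the libraries at 184 and 179 CPM.

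All 3 phosphofructokinase subunits, which form the tetramers that commit sugar to glycolysis, were expressed. *Pfkl*, the liver-type subunit, had 119 and 111 CPM. *Pfkm*, the muscle-type subunit, had 51.6 and 47.4 CPM, and *Pfkp*, the platelet-type subunit, had 27.3 and 31.7 CPM. The order *Pfkl*, *Pfkm*, *Pfkp* held per kilobase in both libraries, with shares of 56.6%, 31.7% and 11.7% in replicate 1 and 55.2%, 30.6% and 14.2% in replicate 2. The log2 ratio of *Pfkl* to *Pfkm* was 0.84 ± 0.01 (SD, n = 2), among the steadiest of the isoform ratios. It was 0.22 when the union of all exons stood in for the transcript length, so its size depended on that choice. On the same strand, *Gm26513* shares 341 exonic bases with *Pfkm*, so reads there could belong to either.

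The PFKFB enzymes make or remove fructose 2,6-bisphosphate, the strongest activator of phosphofructokinase, and *Pfkfb3*, the form known for the highest kinase over phosphatase activity, stood first among them. It had 81.9 and 60.6 CPM in replicates 1 and 2. *Pfkfb2*, the heart form, had 12.2 and 9.63 CPM, and *Pfkfb4* had 2.68 and 3.30 CPM. *Pfkfb1*, the liver form, had 0.462 and 0.688 CPM. *Pfkfb3* made up 81.9% and 78.3% of the level of this family per kilobase, and it exceeded *Pfkfb2* 6.19-fold and 5.80-fold on that scale. *Gm29427* shares 1262 exonic bases with *Pfkfb2* on the same strand, which leaves the *Pfkfb2* level uncertain.

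Aldolase and triosephosphate isomerase complete the splitting of the sugar. *Aldoa*, the muscle and general form, had 475 and 529 CPM, at rank 144 of all genes by mean CPM without division by length. *Aldoc*, the brain form, had 1.59 and 0.830 CPM, so *Aldoa* made up 99.8% and 99.9% of the step per kilobase. *Tpi1*, which interconverts the triose phosphates, had 198 and 223 CPM. For both *Aldoa* and *Tpi1*, the gap between the libraries was under the median shift of all genes.

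The payoff phase, where ATP and NADH are made, started with genes whose reads cannot be placed with certainty. *Gapdh*, which reduces NAD+ and is often used as a reference gene, had 106 and 101 CPM. *Pgk1*, which makes the first ATP of this phase, had 132 and 181 CPM. *Pgam1*, the general phosphoglycerate mutase, had 171 and 172 CPM, and *Pgam2*, the muscle form, had 1.48 and 1.61 CPM. Every 50-base run of the coding sequence of *Gapdh*, *Pgk1* and *Pgam1*, the length of the reads, also occurs elsewhere in the transcript annotation, most often in processed pseudogenes. For *Gapdh* these were 217 other genes, of which 212 are pseudogenes and 166 are listed in the files. For *Pgk1* they were 5 genes, of which 2 are listed, and for *Pgam1* 4 genes, of which 1 is listed.

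A read-length run from the coding sequence of each gene is shown because it is shared in full with such copies. The runs are from GENCODE M21 transcripts on GRCm38. That of *Gapdh* is in exon 4 of 7, chr6:125162843-125162892, minus strand. That of *Pgk1* is in exon 6 of 11, chrX:106197912-106197961, plus strand, and that of *Pgam1* in exon 2 of 4, chr19:41915822-41915871, plus strand.
Gapdh: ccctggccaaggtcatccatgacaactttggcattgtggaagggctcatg
Pgk1: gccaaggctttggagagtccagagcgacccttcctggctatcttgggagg
Pgam1: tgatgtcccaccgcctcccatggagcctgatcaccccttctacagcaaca

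The *Gapdh* run occurs in 49 other genes, 32 of them listed, the *Pgk1* run in 2 and the *Pgam1* run in 1. *Pgam1-ps2*, identical to *Pgam1* over the 762 coding bases, was listed at 88.2 and 105 CPM. *Gm5537*, identical to *Pgk1* over 1251 coding bases, was listed at 50.3 and 71.2 CPM, and *Pgk1-rs7*, identical over 1250 bases, at 47.0 and 63.0 CPM. Of the summed CPM of a gene and its listed copies, copies held 34.1% and 37.9% for *Pgam1*, 42.4% and 42.6% for *Pgk1*, and 24.5% and 26.4% for *Gapdh*. The levels of these genes alone are therefore uncertain. With the copies added, *Pgk1* stood at 230 and 315 CPM, *Pgam1* at 259 and 278 CPM, and *Gapdh* at 140.4 and 137 CPM.

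Enolase, which makes phosphoenolpyruvate, was almost entirely *Eno1*. It had 561 and 731 CPM in replicates 1 and 2, at rank 108 by mean CPM. *Eno2*, the neuronal form, had 38.4 and 22.8 CPM, and *Eno3*, the muscle form, had 2.22 and 2.59 CPM. *Eno1* supplied 94.8% and 97.4% of the step per kilobase, and the order *Eno1*, *Eno2*, *Eno3* was the same in both libraries. Runs of *Eno1* shared with other genes covered 83.3% of its coding sequence, and their listed copies held 17.6% and 19.0% of the summed CPM.

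Pyruvate kinase was the highest step of all. *Pkm* had 1183 and 1456 CPM in replicates 1 and 2, at rank 54 by mean CPM, and *Pklr*, the liver and red cell gene, was at 0 CPM in both. The alternatively spliced forms of *Pkm* are summed in these values and cannot be told apart. *Gm49759*, annotated on the same strand, shares 767 exonic bases with *Pkm*, so part of the reads could belong to either.

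Lactate dehydrogenase was led by the A subunit, which favours lactate formation, over the B subunit, which favours its oxidation. *Ldha* had 371 and 506 CPM in replicates 1 and 2. *Ldhb* had 117 and 52.7 CPM in replicates 1 and 2. *Ldha* was thus the higher and *Ldhb* the lower in replicate 2, also after centring on the all-gene median (log2 ratios of 0.14 and -1.45), and *Ldha* supplied 69.5% and 87.3% of the step per kilobase. The log2 ratio of *Ldha* to *Ldhb* was 1.19 and 2.78, a mean of 1.99 ± 1.13 (SD, n = 2). The step as a whole differed far less, at 294 and 319 CPM per kilobase. *Ldhd*, for the D-lactate enzyme, had 3.55 and 2.34 CPM.

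In lactate export, the isoforms also differed in how far the libraries lay apart. *Slc16a1*, which encodes MCT1, a carrier that works in both directions, had 41.9 and 47.6 CPM. *Slc16a3*, which encodes MCT4, the low-affinity exporter of highly glycolytic cells, had 21.12 and 6.25 CPM in replicates 1 and 2. *Slc16a1* exceeded *Slc16a3* per kilobase 1.94-fold and 7.47-fold, and its share of the step was 66.0% and 88.2%. *Slc16a3* was 3.34-fold lower in replicate 2, the widest gap among the 31 genes, while *Slc16a1* was 1.14-fold higher. After centring on the all-gene median both were lower in replicate 2, with log2 ratios of -0.12 for *Slc16a1* and -2.05 for *Slc16a3*. *Bsg*, the chaperone that brings both carriers to the membrane, had 449 and 548 CPM, and *Emb*, a related chaperone, had 212 and 358 CPM.

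Of 8 further carriers and chaperones, *Bsg* and *Emb* included, 5 reached a mean of 1 CPM. *Slc16a6* was lower in replicate 2 at 1.48 and 0.641 CPM. *Slc16a7*, for the pyruvate and lactate carrier MCT2, was higher in replicate 2 at 2.45 and 5.10 CPM.

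**Figure D2:**
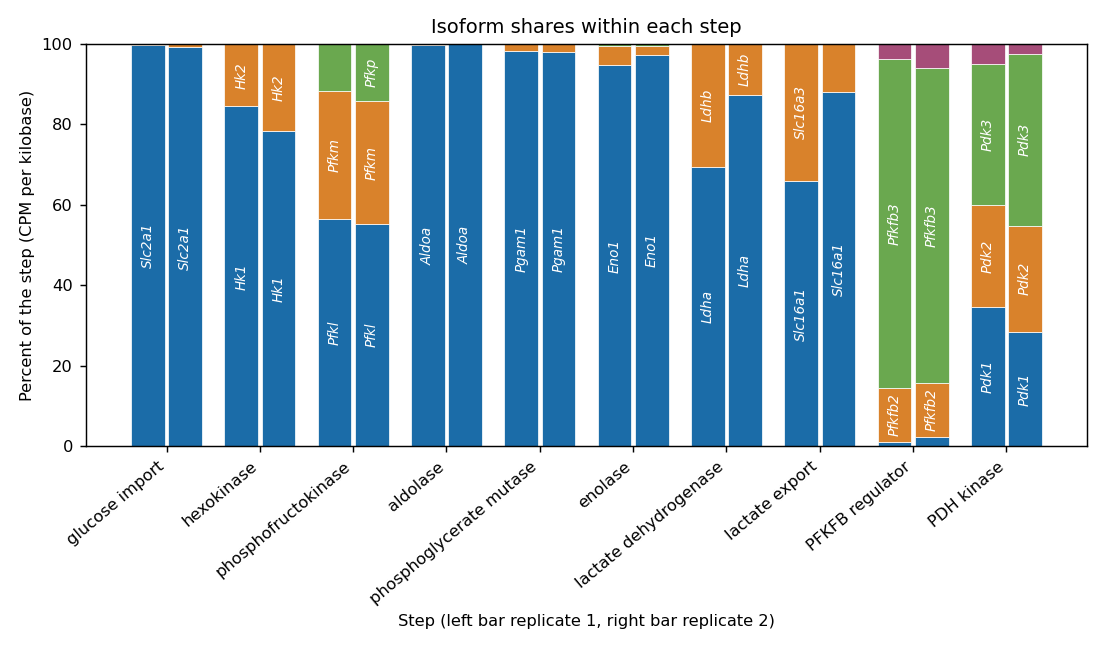
Share of each isoform in the summed CPM per kilobase of its step, in percent, with replicate 1 as the left and replicate 2 as the right bar of each pair. Segments are stacked in alphabetical order of the gene symbols from the bottom, and names are given for segments of at least 12%. *Ldha* takes 69.5% of the left and 87.3% of the right bar, and *Slc16a1* 66.0% and 88.2%, while the phosphofructokinase bars are nearly alike.

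Pyruvate can instead enter the mitochondrion and be oxidised by pyruvate dehydrogenase, which the PDK enzymes switch off by phosphorylation. *Pdha1* and *Pdhb*, the subunits of the E1 enzyme, had 51.6 and 83.1 CPM, and 38.1 and 44.4 CPM, in replicates 1 and 2. Their log2 ratio per kilobase was -0.24 ± 0.33 (SD, n = 2). The sign turned with the length used, to 0.55 with coding length, 0.72 with exon unions and 0.67 without division by length, so which subunit is higher is not settled. *Pdha1* showed the largest gap in favour of replicate 2 among the 31 genes, 1.61-fold.

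All 4 PDK genes averaged at least 1 CPM. *Pdk1*, a known HIF target, had 34.5 and 29.2 CPM, and *Pdk3* had 14.3 and 17.9 CPM. *Pdk2* had 11.0 and 11.8 CPM, and *Pdk4*, known to respond to fasting and fatty acids, had 3.28 and 1.64 CPM. Per kilobase, *Pdk3*, *Pdk1* and *Pdk2* stood at 7.61 ± 1.23, 6.15 ± 0.718 and 5.07 ± 0.242 CPM per kilobase (SD, n = 2), and the log2 ratio of *Pdk1* to *Pdk3* was -0.30 ± 0.40 (SD, n = 2). The order of these depended on the length used: the ratio of *Pdk1* to *Pdk3* was 0.93 with coding length and 0.99 without division by length, and that of *Pdk1* to *Pdk2* went from 0.27 to 1.39 and 1.48. *Pdk4* stood below them at 0.706 ± 0.334 CPM per kilobase. Among 8 partners of the complex and of pyruvate entry, all reached a mean of 1 CPM, and the highest per kilobase were *Mpc1*, a subunit of the mitochondrial pyruvate carrier, at 19.3 ± 1.35 and *Dld*, the E3 subunit, at 18.5 ± 5.19 CPM per kilobase. The phosphatase gene *Pdp1*, whose product reverses PDK action, was higher in replicate 2 at 2.40 and 5.88 CPM.

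Summed over isoforms and divided by transcript length, the steps spanned from 543 ± 79.4 CPM per kilobase for pyruvate kinase to 13.3 ± 1.51 for lactate export (SD, n = 2). Pyruvate kinase was followed by enolase at 331 ± 55.4, aldolase at 325 ± 24.9 and lactate dehydrogenase at 306 ± 17.8 CPM per kilobase. Enolase, aldolase and lactate dehydrogenase did not differ from each other beyond their spread. The same 4 steps stood highest in each library alone, with exon unions as length, without division by length and with copies added. Triosephosphate isomerase came next at 131 ± 11.3, then the mutase at 98.5 ± 0.9004 and phosphoglycerate kinase at 85.7 ± 18.8 CPM per kilobase. With copies added, the mutase at 153 ± 7.69 and phosphoglycerate kinase at 149 ± 33.0 CPM per kilobase passed triosephosphate isomerase, so this part of the order rests on the placing of shared reads.

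*Gapdh* at 72.9 ± 2.40, *Gpi1* at 62.8 ± 1.29, glucose import at 62.3 ± 29.998 and phosphofructokinase at 55.2 ± 1.88 CPM per kilobase formed the middle of the order. The spread of glucose import covered all these neighbours, since *Slc2a1* placed it 7th in replicate 1 and 12th in replicate 2. Pyruvate dehydrogenase E1 stood at 50.9 ± 10.7 and hexokinase at 43.4 ± 8.44 CPM per kilobase. The PDK genes at 19.5 ± 0.421, the PFKFB genes at 18.5 ± 3.34 and lactate export stood lowest. These 3 steps were also the lowest under the other settings named above, but the order between the ends depended on the gene length used: with exon unions, 12 of the 16 steps changed place and *Gapdh* stood 13th.

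**Figure D3:**
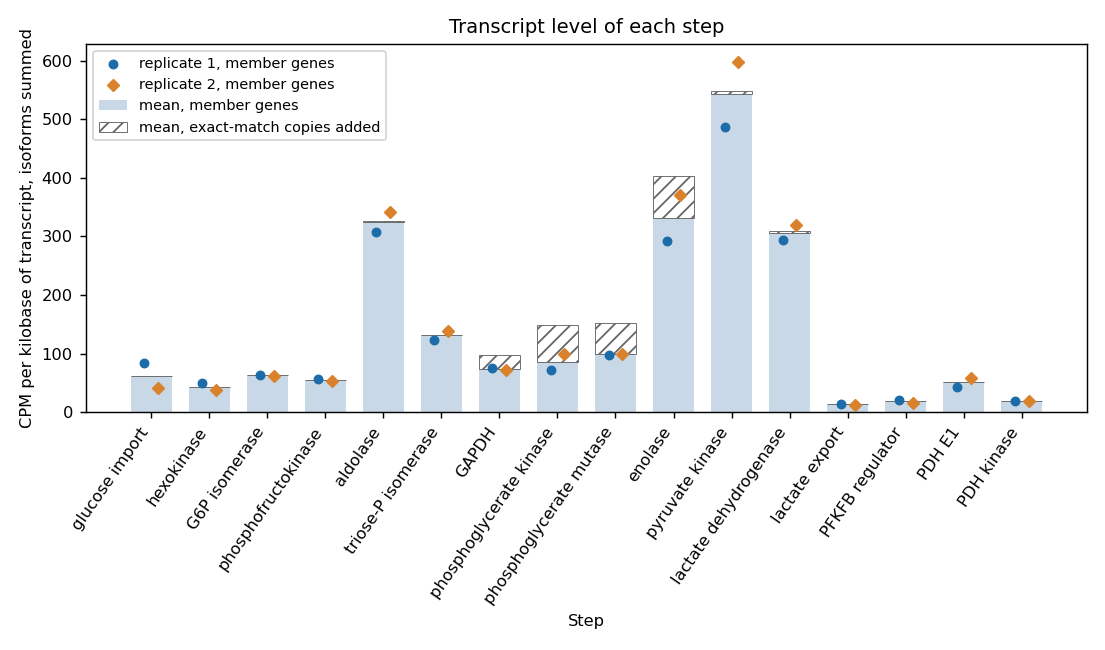
CPM per kilobase of the longest coding transcript, summed over the isoforms of each of 16 steps. Bars give the mean of both libraries, points the libraries, and hatched parts the added mean of listed genes that share a 50-base coding run with a member. Pyruvate kinase reaches 543 CPM per kilobase, and the hatched parts are largest for enolase, phosphoglycerate kinase, the mutase and *Gapdh*.

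Isoform order was the same in both libraries. Of 21 isoform pairs compared, 20 had a value above 0 for both genes, and in all 20 the same gene led in both libraries. In 18 of the 20 the mean log2 ratio exceeded its SD over the libraries, the exceptions being *Pdk1* with *Pdk3* and *Pdha1* with *Pdhb*, whose sign turned with other lengths. Among forms known from muscle or neurons, *Pgam2*, *Eno3*, *Slc2a4*, *Eno2*, *Aldoc* and *Slc2a3* were each the lower partner of their pair with the general form. Other muscle forms were not low. *Aldoa*, the muscle and general form, led its step, and *Pfkm* stood below *Pfkl* but exceeded *Pfkp* 2.72-fold and 2.16-fold per kilobase. Of 11 skeletal muscle markers, 2 reached a mean of 1 CPM, the troponin genes *Tnnt3* at 9.01 and 2.18 CPM and *Tnni2* at 3.44 and 3.51 CPM, and *Myh8*, *Mb* and *Myog* were at 0 CPM in both libraries. The markers summed to 13.0 and 7.08 CPM. Of 4 listed neuronal markers, 1 reached a mean of 1 CPM, *Tubb3* at 0.555 and 4.39 CPM, and the 4 summed to 0.814 and 4.997 CPM.

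The adipocyte markers *Adipoq*, *Plin1* and *Cidec* were at 0 CPM in both libraries, and *Fabp4*, which other cells also express, had 6.89 and 6.62 CPM. The 6 erythroid markers summed to 0.0930 and 0.1199 CPM, the 4 leukocyte markers to 0.739 and 1.19 CPM, the 4 endothelial markers to 0.231 and 0.166 CPM, and the 5 fibroblast markers to 2.56 and 3.83 CPM. Cells with erythrocyte, leukocyte or endothelial surface markers had been left out by the sort before culture, so those low sums do not describe the culture alone.

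Between the libraries, 3 of the 31 genes averaging at least 1 CPM differed more than 2-fold, against 15.1% of all such genes. All 3 were lower in replicate 2: *Slc2a1* with a log2 ratio of -1.03, *Ldhb* with -1.15 and *Slc16a3* with -1.74. Among all genes, 3.71% were more than 2-fold lower in replicate 2 and 11.4% more than 2-fold higher, whereas none of the 31 was more than 2-fold higher. These are a glucose importer, a lactate dehydrogenase subunit and a lactate exporter. The libraries are replicates of 1 group, so these gaps describe spread and were not tested.

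Set against the median shift of all genes, the pathway sat low in replicate 2. The log2 ratio was above 0 for 17 of the 31 genes and below 0 for 14, but it exceeded the all-gene median of 0.30 in 5 genes only, *Pdha1*, *Pgk1*, *Ldha*, *Eno1* and *Pdk3*, and fell below it in 26. The median over the 31 genes was 0.08, which is -0.22 relative to all genes. After centring on the all-gene median, *Aldoc*, *Eno2* and *Pdk4* also passed 2-fold, which made 6 of 31 lower and none higher, against 6.06% and 7.43% of all genes. The log2 ratios of the 31 genes had an SD of 0.56, against 0.83 over all genes. Chondrocyte markers sat low as well, with 7 of 8 below the all-gene median, and the part of the marker shift in the pathway values was not tested.

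The earlier and the later enzymes of the pathway were also summed apart. The 10 genes from *Gapdh* to lactate dehydrogenase summed to 2683 and 3227 CPM, a log2 ratio of 0.27, and 7 of the 10 were higher in replicate 2. The 9 genes from hexokinase to triosephosphate isomerase summed to 1277 and 1292 CPM, a log2 ratio of 0.02, and 4 of the 9 were higher. Both ratios lay below the all-gene median of 0.30, that of the later enzymes only slightly. Over all genes averaging at least 1 CPM, the lower quartile of the log2 ratio was -0.01. Most genes were thus higher in replicate 2, and 7 of 10 does not set the later enzymes apart. The later sum is weighted towards *Pkm*, at 1183 and 1456 CPM, whereas the median counts every gene alike. This split was not among the planned comparisons.

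**Figure D4:**
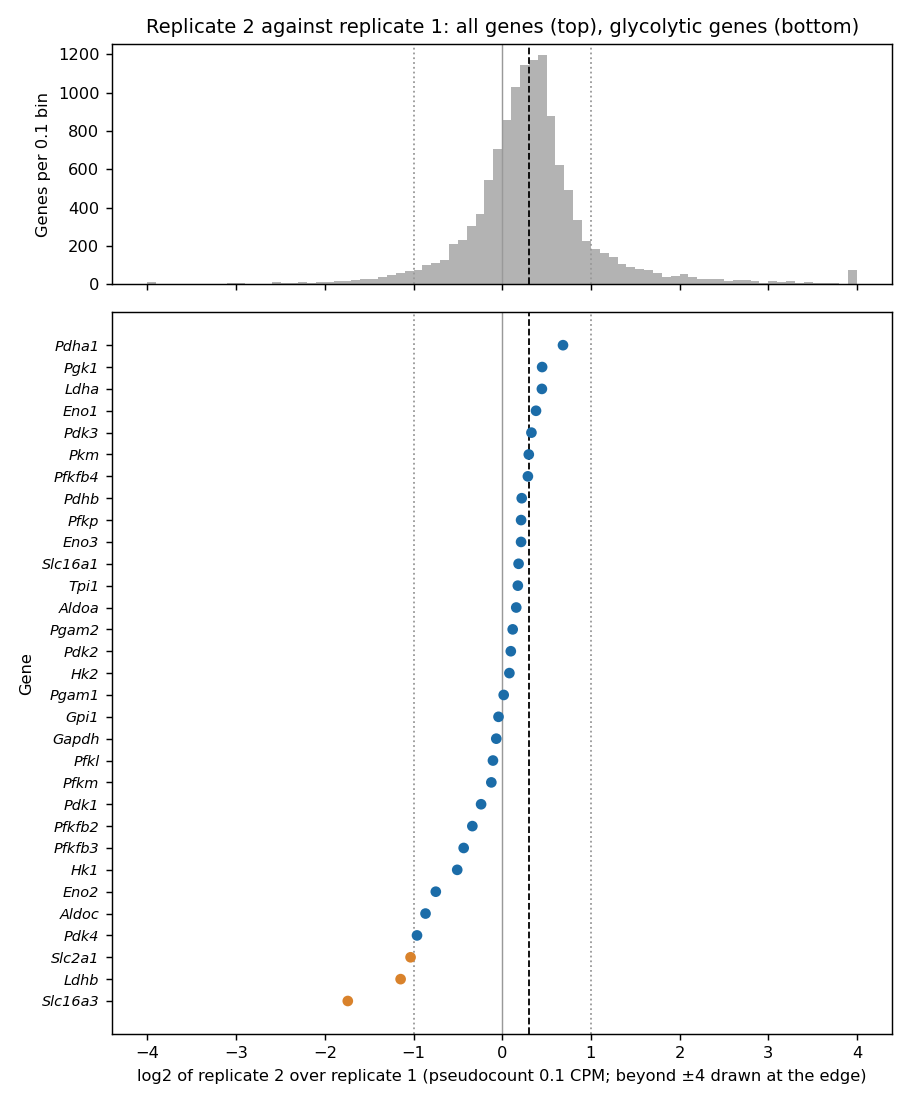
Log2 of replicate 2 over replicate 1 for all 12631 genes averaging at least 1 CPM (top, genes per bin of 0.1) and for the 31 glycolytic genes among them (bottom). The dashed line is the all-gene median of 0.30 and dotted lines mark 2-fold. Of the 31 genes, 26 lie left of the dashed line, and *Slc2a1*, *Ldhb* and *Slc16a3* lie past the left dotted line.

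Genes of pathways that branch from glycolysis were counted in the same way. Pentose phosphate genes divert glucose 6-phosphate to NADPH and ribose. Of the 7 counted, 6 were higher in replicate 2, as were most genes, 5 exceeded the all-gene median and none passed 2-fold. The highest per kilobase were *Pgd*, at 104 and 167 CPM, and *Taldo1*, at 66.4 and 94.2 CPM. Of 10 genes of glycogen storage and breakdown, 8 reached a mean of 1 CPM, 6 of these exceeded the all-gene median, and 1 passed 2-fold. That gene was *Ugp2*, which makes UDP-glucose, the donor for glycogen and for matrix sugars, at 116 and 256 CPM. *Pgm1*, a phosphoglucomutase gene, followed it per kilobase at 65.1 and 90.2 CPM. *Bpgm*, which makes the 2,3-bisphosphoglycerate known from red cells, was also higher in replicate 2, at 12.9 and 37.0 CPM.

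Among 6 listed genes of gluconeogenesis and of brakes on glycolysis, 5 reached a mean of 1 CPM and none exceeded the all-gene median. *Pck2*, the mitochondrial phosphoenolpyruvate carboxykinase, had 157 and 174 CPM, and *G6pc3*, the broadly expressed glucose-6-phosphatase, had 50.3 and 51.8 CPM. *Fbp2*, the muscle fructose-bisphosphatase, was lower in replicate 2 at 8.27 and 2.25 CPM.

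Of 17 HIF targets outside glycolysis, 14 reached a mean of 1 CPM, 7 of these were higher and 7 lower in replicate 2, and all 14 were below the all-gene median. Their median log2 ratio was 0.01, against 0.08 for the glycolytic genes and 0.30 for all genes. The highest per kilobase were the collagen prolyl hydroxylase genes *P4ha2*, at 558 and 502 CPM, and *P4ha1*, at 588 and 708 CPM. *Adm*, which encodes adrenomedullin, was the 1 gene past 2-fold, at 40.5 and 6.86 CPM. *Egln3*, at 0.277 and 0.0949 CPM, *Car9*, at 0.0693 and 0.285 CPM, and *Ankrd37*, at 0.578 and 0.759 CPM, stayed under 1 CPM in both libraries. *Hif1a* itself had 325 and 283 CPM, and *Epas1*, which encodes HIF-2α, had 6.70 and 3.77 CPM.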

How the data were processed

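Poly(A) RNA of 2 libraries of Sox9-GFPHi chondrospheres was sequenced with single-end reads of 50 bases. The authors aligned the reads to GRCm38 (mm10) with GENCODE M25 by STAR 2.7.3a, quantified genes in Partek Flow 10.0.21.0801 by Partek E/M, a method able to split a read over genes of identical sequence, and deposited CPM values for 23628 genes. The libraries were stranded, and the strand setting of the counting is not given in the sources used here.

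An offset of 0.0001 CPM, present in every deposited value, was subtracted. Of the low values, 66.6% and 65.1% were whole multiples (within 0.05) of the smallest step, too few to recover reads, so count models were not used. Mean and SD were taken over the 2 libraries, and no test was made because there is 1 group. For log2 ratios of replicate 2 to replicate 1, 0.1 CPM was added as a pseudocount, which understates changes of low genes, and a minimum mean of 1 CPM. Ranks, medians and counts past a CPM level use CPM without length, and levels of isoforms and steps were compared as CPM per kilobase of the longest protein-coding transcript in GENCODE M21 (GRCm38), an earlier release than the authors used. There 33 of the 34 symbols matched a single gene and *Aldoa* matched more than one. Copies are genes outside a member's locus that hold a 50-base run of its coding sequence.

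All 34 genes were named, and from each of 9 further gene lists (86 genes) the 2 highest per kilobase and any past 2-fold, with other genes named where a step needed them. Some genes of these lists are not reported here. The genes, lists and marker lists were chosen with earlier results of these data known. Alternatives covered scaling, length, pseudocount, filter and leaving out each library. Adding copies was chosen after seeing the data. The scripts were tested on simulated data. Python 3.11.15, numpy 2.4.6, pandas 2.3.3 and matplotlib 3.10.9 were used.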

Additional observations from a re-analysis of the deposited data

How the results depend on the processing

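With 2 libraries of 1 group, every SD rests on n = 2 and no result has a test. No paired analysis was possible because there is only 1 group. The count of genes past 2-fold between the libraries and their median log2 ratio depended on scaling. The count rose from 3 of 31 to 6 of 31 with TMM scaling and with centring on the all-gene median, and to 6 of 32 when the total excluded the 10 highest genes. Of all genes, 15.1% passed 2-fold as reported, 13.3% with TMM scaling, 13.5% with centring and 15.5% without the 10 highest genes. In that last setting, *Slc2a3*, which then passes the filter on low values, was the 1 member gene higher in replicate 2. The median log2 ratio of 0.08 turned to -0.22 with TMM scaling, to -0.22 with centring and to -0.11 with the 10 highest genes left out. Pseudocounts of 0.01 and 1 CPM and a minimum of 10 CPM left 3 genes past 2-fold, and taking all genes above 0 gave 4 of 33. In the same order, the shares of all genes past 2-fold were 15.5%, 11.1%, 8.63% and 21.6%.

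The share of all CPM held by the genes was 0.779% without the 10 highest genes and ranged from 0.454% to 0.497% over single libraries. The median level was 49.5 CPM over those averaging at least 1 CPM and ranged from 42.1 to 46.0 CPM over single libraries. The count of isoform pairs whose ratio exceeded its SD stayed between 18 and 20 under other lengths, a pseudocount of 0.1 CPM and added copies, and the ratios that changed sign were *Pdk1* to *Pdk3* (-0.30, to 0.93 with coding length and 0.99 without length) and *Pdha1* to *Pdhb* (-0.24, to 0.55 with coding length, 0.72 with exon unions and 0.67 without length). With copies added, which was chosen after seeing the data, 4 of 33 gene levels moved by more than 1 SD, as did 31 of 33 when the total excluded the 10 highest genes and none with TMM scaling. Excluding those genes rescales every level of a library by the same factor, and the TMM factors of the libraries are reciprocal. The counts under these scalings therefore do not show how stable the levels are. Leaving out a library gives no value for ratios between the libraries.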

Other observations

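Of the 8 genes of the HIF system and related regulators, 6 reached a mean of 1 CPM, and 1 of these exceeded the all-gene median log2 ratio. That gene was *Myc*, which encodes a transcription factor known to act on glycolytic genes, at 15.2 CPM in replicate 1 and 34.3 CPM in replicate 2. *Foxo1*, which encodes a transcription factor restrained by insulin signalling, had 172 and 146 CPM and stood second to *Hif1a* per kilobase, at 18.4 ± 2.16 CPM per kilobase (SD, n = 2). *Arnt*, which encodes the partner of the HIF alpha subunits, had 57.2 and 53.9 CPM, and *Vhl*, which encodes part of the ligase that marks them for degradation, had 29.5 and 21.6 CPM. *Ppargc1a*, at 0.0693 and 0.308 CPM, and *Ppara*, at 0.116 and 0 CPM, were under 1 CPM.

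Copies of *Eno1* did not keep one ratio between the libraries. *Gm4735*, which differs from *Eno1* at 5 of 1302 coding bases, was listed at 31.5 CPM in replicate 1 and 82.3 CPM in replicate 2, while *Eno1b*, which differs at 8 of 1302, was listed at 88.5 and 88.9 CPM. *Eno1* itself differed 1.30-fold between the libraries. Why the copies differed was not tested.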
